A study of Mus musculus with 8 samples.

Results

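The Foxo, Klf and Btg quiescence genes are 9 genes named by their symbols, Foxo1, Foxo3, Foxo4, Klf2, Klf3, Klf6, Klf13, Btg1 and Btg2, out of 26159 genes to which RNA-seq transcripts were assigned. They were followed in 2 data sets of C57BL/6 mice: RNA-seq of sorted bone marrow pre-B cells, in TPM (reads scaled by transcript length and library size), and Omni-ATAC-seq of sorted LSK cells (lineage negative, Sca-1+, cKit+ progenitors), as peaks of open chromatin. There were 2 WT and 2 Dido1∆E16 libraries in each data set. The Dido1∆E16 mice were Dido1 flE16/∆E16;R26R-EYFP;iCreVav1, which lack exon 16 of Dido1, the last exon of the Dido3 isoform, in hematopoietic cells. The mice called WT were Dido1 flE16/+;R26R-EYFP;iCreVav1 littermates, which the paper also calls heterozygous. Both genotypes thus carried 1 floxed allele, the EYFP reporter and the Cre recombinase, driven by the Vav1 promoter of blood cells. No library came from mice free of Cre, and WT does not mean 2 unmodified alleles here. Animals were 6 to 10 weeks old, and each pre-B library came from a pool of 2 to 3 mice. The study treats the 2 libraries of a genotype as biological replicates in both assays, while the labels do not tie libraries to animals.

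Foxo proteins are forkhead transcription factors that enter the nucleus when signaling through PI3K and Akt is low. In early B cells Foxo1 drives the genes for the IL-7 receptor and the Rag recombinase, and Foxo factors raise inhibitors of the cell cycle. Klf proteins are zinc-finger factors that bind GC-rich and CACCC sequences; Klf2 keeps lymphocytes quiescent and directs their homing. Btg1 and Btg2 are antiproliferative proteins that bring the Ccr4-Not deadenylase to messenger RNA and so shorten poly(A) tails. Klf2, Klf6, Btg1 and Btg2 are also known as genes that respond quickly to stimulation.

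The deleted exon was checked first. In WT replicates 1 and 2, StringTie coverage of Dido1 exon 16 was 15.3 and 10.2 reads per base; in the Dido1∆E16 replicates it was 0.192 and 0.039. The labels of the 4 pre-B libraries therefore fit the genotype, while the ATAC-seq files hold no such check. The pre-B sort held B-cell RNA in each library: Cd79b, a signaling subunit of the B-cell receptor, had 3393 and 4458 TPM in WT and 4324 and 4379 TPM in Dido1∆E16 libraries. Other cells differed between libraries. Neutrophil and monocyte markers summed to 244 and 2213 TPM in WT and to 1071 and 9659 TPM in Dido1∆E16 libraries, and 7 erythroid markers to 301 and 924 TPM against 682 and 8688 TPM. T and NK markers summed to between 20.8 and 41.3 TPM, with 4 of 8 at 0 in all libraries. All 6 tested markers of pro-B and large pre-B cells had positive log2 fold changes (median 3.00), led by Vpreb2 at 27.1 and 8.76 against 382 and 168 TPM and Vpreb1, a surrogate light chain gene, at 108 and 40.9 against 1222 and 738 TPM, although none passed the test (lowest adjusted p of limma = 0.154). All 6 had an unadjusted p of limma under 0.05 (11.6% of all genes tested) and did not overlap between genotypes (42.7% of all genes tested). In a bulk sample fewer cells of a type and less RNA per cell cannot be told apart, and the part of these cells in the values below was not tested.

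In LSK cells, the start sites show what kind of DNA the peaks cover. The upstream promoter sequences (RefSeq starts, GRCm38.p6) of Foxo1, whose promoter peak was present in both WT and in neither Dido1∆E16 library by MACS2, and of the Klf and Btg genes whose RNA varied most between pre-B libraries are printed below, 5′ to 3′ on the strand of the gene and ending at the base before the start site. Capitals mark GGGCGG (the GC box, bound by Sp and Klf factors), the binding motif CCAAT of NF-Y, the TATA box motif TATAAA and the cyclic AMP response element TGACGTCA, read on both strands. They lie at chr3:52268177-52268336 (+) for Foxo1, chr8:72318912-72319061 (+) for Klf2, chr13:5861339-5861488 (+) for Klf6, chr10:96616851-96617000 (+) for Btg1 and chr1:134079156-134079305 (-) for Btg2.
Foxo1 promoter: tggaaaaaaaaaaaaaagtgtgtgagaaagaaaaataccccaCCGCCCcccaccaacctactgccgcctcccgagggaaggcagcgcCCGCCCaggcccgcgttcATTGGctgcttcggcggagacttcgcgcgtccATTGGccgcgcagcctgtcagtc
Klf2 promoter: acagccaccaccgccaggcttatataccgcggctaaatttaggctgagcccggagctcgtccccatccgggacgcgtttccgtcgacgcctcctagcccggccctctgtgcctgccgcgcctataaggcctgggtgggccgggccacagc
Klf6 promoter: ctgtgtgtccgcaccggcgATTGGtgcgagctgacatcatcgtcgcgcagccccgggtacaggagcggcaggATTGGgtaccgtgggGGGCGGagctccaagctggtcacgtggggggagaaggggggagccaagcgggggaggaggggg
Btg1 promoter: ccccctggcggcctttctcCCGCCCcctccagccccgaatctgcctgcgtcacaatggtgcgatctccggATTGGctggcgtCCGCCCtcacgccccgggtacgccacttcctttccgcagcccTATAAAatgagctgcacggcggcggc
Btg2 promoter: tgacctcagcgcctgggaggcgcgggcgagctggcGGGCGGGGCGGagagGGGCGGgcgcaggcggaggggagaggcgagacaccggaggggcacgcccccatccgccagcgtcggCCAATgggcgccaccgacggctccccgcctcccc

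Over the whole window of 250 bases before and 50 after the start, 8 of the 9 members had an entry, and all 8 held a GC box, against 35.7% of 32851 promoters in the table. CCAAT was found in 5 of 8 (Foxo1, Klf6, Klf13, Btg1 and Btg2) against 37.4%, and CACCC in 3 of 8 (Klf2, Klf3 and Klf13) against 57.5%. TATAAA was found only in Btg1 among the 8 (13.6% of all promoters), and TGACGTCA only in Btg2 (1.79%), outside the stretch printed above. Overlapping GC boxes, as in Btg2, form a single run of capitals. The forkhead motif TGTTTAC was found in Btg1 alone (3.65%). The CArG box, the site of serum response factor, matched none of the 8 (1.63%), and neither did the Ets motif CCGGAAG, the Gata motif AGATAA or the Runx motif TGTGGT. The promoters in the table include those of genes not expressed here. Among promoter regions with a MACS2 peak in both WT LSK libraries, the central 200 bases held a GC box in 7 of 10 regions of the members. The share over all 9755 such regions was 55.1%. A match is a run of letters and not a site shown to be bound.

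In pre-B cells the Foxo, Klf and Btg genes were abundant in both genotypes and none passed the test between them. Of 9 members, 0 were called by limma (adjusted p under 0.05 and absolute log2 fold change of at least 0.6), 0 had an unadjusted p under 0.05 (11.6% of all genes tested, 1383 of 11872, did) and 0 were called with eBayes without a trend. The background was as low, at 0.0505% of genes called, or 6 of 11872. The median log2 fold change, Dido1∆E16 minus WT on the log2(TPM + 1) scale, was -0.10 over the members and 0.07 over all genes tested. It rested on single libraries, being -0.39 without WT replicate 1, 0.18 without WT replicate 2, -0.19 without Dido1∆E16 replicate 1 and -0.02 without Dido1∆E16 replicate 2. The 2 libraries of a genotype could reveal only large changes: of 200 genes changed in simulated libraries, 1.5% were called at a change of 1 log2 unit, 65.5% at 2 units and 97% at 4 units. Each simulated gene took the noise typical of genes of like mean, so the shares do not hold for genes that vary more. In the real libraries Vpreb2, at a log2 fold change of 3.94, was not called, while Serpina3g, at 2.81, was.

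**Figure D1:**
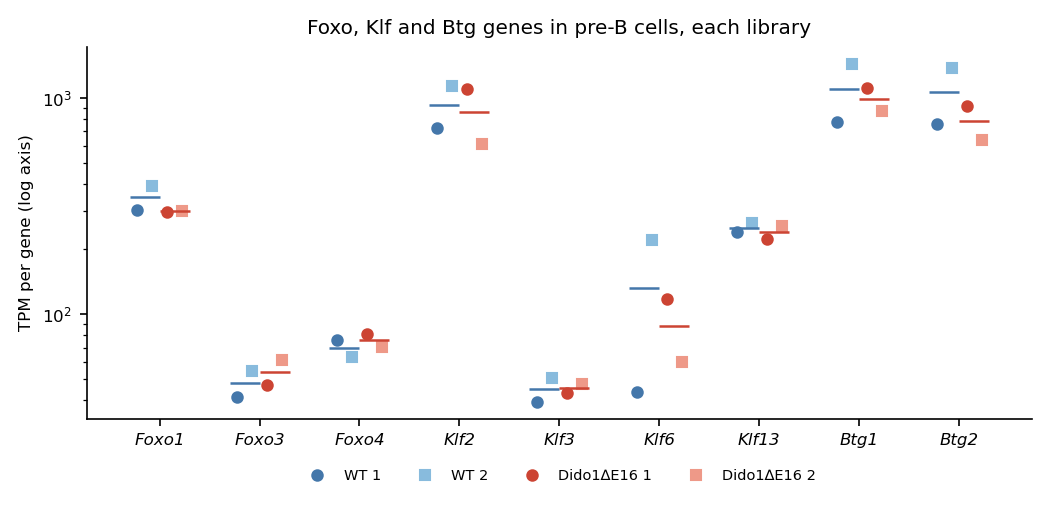
Level of each of the 9 genes in TPM (log axis) in the 4 pre-B libraries; circles and squares are replicates 1 and 2, blue WT and red Dido1∆E16, and lines are the means of 2. Btg1, Btg2 and Klf2 lie highest, and the 2 colors overlap for every gene but Foxo1, whose Dido1∆E16 values of 298 and 301 TPM lie just under the lower WT value of 303 TPM.

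Among the Foxo genes, Foxo1, the main family member of B-cell progenitors, was the most abundant. It had 303 and 393 TPM in WT replicates 1 and 2 and 298 and 301 TPM in Dido1∆E16 replicates 1 and 2 (log2 fold change -0.20 ± 0.17 (SE), 95% interval -0.66 to 0.26, adjusted p of limma = 0.691). Both Dido1∆E16 values lay below both WT values, by a margin of about 1 TPM, and the change was -0.01 without WT replicate 2. Groups that did not overlap were common, with 42.7% of all genes tested.

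Foxo3, which shares most targets with Foxo1, had 41.6 and 54.7 TPM in WT and 46.9 and 61.8 TPM in Dido1∆E16 libraries (0.17 ± 0.23, interval -0.46 to 0.80). Foxo4 had 76.3 and 63.8 TPM against 81.0 and 70.6 TPM (0.11 ± 0.16, interval -0.33 to 0.56). The groups overlapped for both. A pair of annotated Foxo3 transcripts with the same ends, 2889 and 2893 bases long, exchanged places in 1 library: the longer had 40.5, 54.7 and 46.9 TPM in the first 3 libraries and 16.1 TPM in Dido1∆E16 replicate 2, where the other, listed at 0 elsewhere, had 45.7 TPM. Their sum is the more reliable value, since the transcripts differ by 4 bases.

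Among the Klf genes, Klf2 stood at 723 and 1132 TPM in WT and at 1101 and 612 TPM in Dido1∆E16 libraries (-0.14 ± 0.38, interval -1.18 to 0.91). Klf6, a factor induced by injury and growth signals, varied most of all members, with 43.8 and 219 TPM in WT and 117 and 59.9 TPM in Dido1∆E16 libraries (-0.23 ± 0.87, interval -2.59 to 2.13). The difference between the 2 WT libraries was 5.0-fold for Klf6 and 1.57-fold for Klf2, larger than any difference between the genotype means. Klf13, which regulates lymphocyte genes such as the chemokine Ccl5, was the steadiest, at 239 and 263 TPM against 223 and 256 TPM (-0.07 ± 0.13, interval -0.44 to 0.30). Klf3, a repressor that binds CACCC sequences, was the least abundant member and had 39.4 and 50.9 TPM against 43.2 and 47.7 TPM (0.02 ± 0.19, interval -0.50 to 0.53). Its main transcript was uc008xmt.1, starting at chr5:64812339, in replicate 1 of both genotypes (34.0 and 37.0 TPM) and uc008xms.1, starting at chr5:64803523, in replicate 2 of both (42.5 and 39.9 TPM), each listed at 0 in the other libraries. A further transcript with the upstream start, uc008xmr.1, had 5.41, 5.38, 4.56 and 4.67 TPM in the 4 libraries. The transcript to which StringTie assigned most reads followed the replicate number in these 4 libraries. The sum per gene varied by 1.29-fold over the 4 libraries.

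The Btg genes had the highest means over the 4 libraries, although in Dido1∆E16 libraries the mean of Klf2 (857 TPM) lay above that of Btg2 (778 TPM). Btg1 had 772 and 1433 TPM in WT and 1106 and 871 TPM in Dido1∆E16 libraries (-0.10 ± 0.35, interval -1.05 to 0.85). Btg2, a target of p53 and of mitogens, had 753 and 1373 TPM against 919 and 637 TPM, which was the largest change of a member (-0.41 ± 0.37, interval -1.41 to 0.59, adjusted p of limma = 0.713) and was 0.02 without WT replicate 2. The genotypes overlapped for both genes, and a decrease of Btg2 as large as the lower bound was compatible with these libraries.

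**Figure D2:**
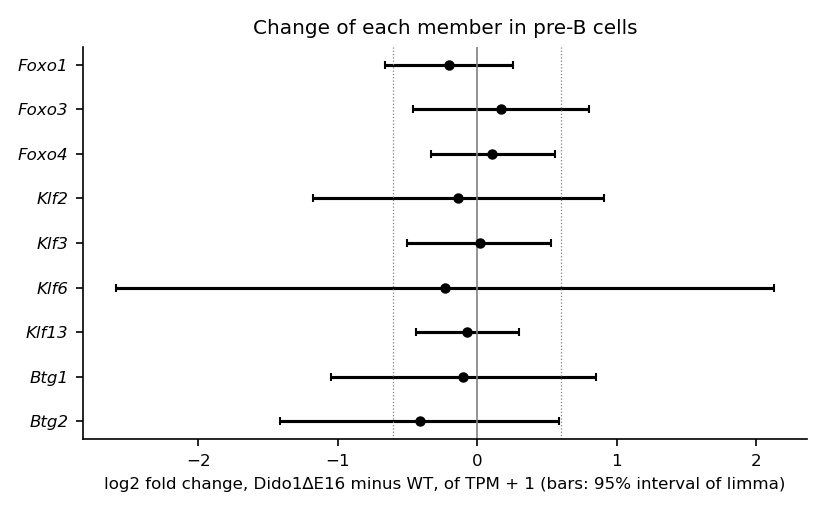
Log2 fold change of TPM + 1, Dido1∆E16 minus WT, of each member (points) with the 95% interval of limma (bars, 2 libraries per genotype); dotted lines mark 0.6 in either direction. Every interval spans 0, and those of Klf2, Klf6, Btg1 and Btg2 are the widest.

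Ordered by the mean over the 4 libraries, the levels were 1050 TPM for Btg1, 921 for Btg2, 892 for Klf2, 324 for Foxo1, 245 for Klf13, 110 for Klf6, 72.9 for Foxo4, 51.2 for Foxo3 and 45.3 for Klf3. Btg1, Btg2 and Klf2 stood at percentile 99 or above of the genes tested, and their ranges overlapped each other. The ranges of Foxo1 and Klf13 did not overlap each other, and neither did those of Foxo4 and Foxo3, while Foxo3 and Klf3 overlapped. Klf6 spanned from within the range of Foxo3 to just under Klf13.

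Klf2, Klf6, Btg1 and Btg2 shared an order over the libraries that was not the order of the genotypes. Each was higher in WT replicate 2 and Dido1∆E16 replicate 1 than in the other 2 libraries, and the other 5 members were not. The order also held for 7 of the 11 tested other Foxo, Klf, Btg and Tob genes, 3 of 17 Foxo target genes and 0 of 18 cycling genes. The order was thus not limited to the members. Its share over all genes tested was not counted, so these counts cannot be read against a background. All 15 immediate early genes, which cells switch on within minutes of a stimulus, had the same order: their summed level was 1877 and 9470 TPM in WT and 5691 and 1394 TPM in Dido1∆E16 libraries. Fosb, a subunit of AP-1, had 30.2 and 562 TPM in WT and 237 and 2.40 TPM in Dido1∆E16 libraries (log2 fold change -2.22 ± 2.56), and the nuclear receptor gene Nr4a1 had 6.69 and 73.1 TPM against 20.1 and 4.81 TPM (-1.11 ± 1.31). None of the 15 was called and none had an unadjusted p under 0.05 (lowest adjusted p of limma = 0.699). For these 4 members the spread within a genotype exceeded the difference between genotypes.

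The 3 genes whose centred log2 values lay nearest to those of Btg2 over the 4 libraries were Fem1c, Tmem203 and Prdm1, at root mean square distances of 0.042, 0.042 and 0.043 log2 units. Prdm1, the plasma cell regulator also known as Blimp1, had 3.50 and 7.10 TPM in WT and 4.20 and 2.91 TPM in Dido1∆E16 libraries. Among the members, Btg1 was nearest to Btg2 (0.17) and the nearest pair was Klf3 and Klf13 (0.09). With 4 libraries such a likeness is a description.

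The cycling genes gave a different order, with WT replicate 1 highest and WT replicate 2 lowest. Their 18 genes summed to 3596 and 814 TPM in WT and to 1816 and 2037 TPM in Dido1∆E16 libraries, and both Dido1∆E16 values lay between the WT values. Top2a, the topoisomerase of dividing cells, had 503 and 45.7 TPM in WT and 189 and 255 TPM in Dido1∆E16 libraries, and the proliferation marker Mki67 228 and 25.0 against 86.3 and 139 TPM. None of the 18 was called, and none had an unadjusted p under 0.05. Between the Dido1∆E16 libraries Klf2, Klf6, Btg1 and Btg2 differed by 1.27-fold to 1.95-fold. The part of cycling cells in the members' values was not tested.

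**Figure D3:**
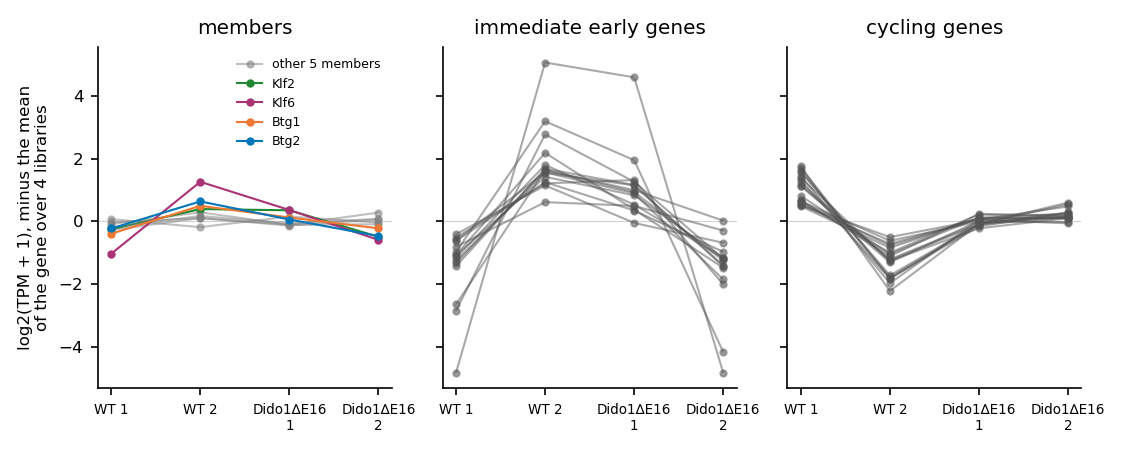
Centred log2(TPM + 1) of each gene in the 4 pre-B libraries, for the 9 members (left), the 15 immediate early genes (middle) and the 18 cycling genes (right); each line joins the 4 values of 1 gene. The immediate early genes and Klf2, Klf6, Btg1 and Btg2 are high in WT replicate 2 and Dido1∆E16 replicate 1, and the cycling genes are highest in WT replicate 1.

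The other genes of these pathways were read against the same background, including the 11.6% of all genes tested at an unadjusted p under 0.05. Of 18 other Foxo, Klf, Btg and Tob genes, 11 were expressed enough to be tested and 7 were at 0 in all libraries; 0 were called, 1 had an unadjusted p under 0.05, and the median log2 fold change was -0.24. Klf1, the erythroid Klf factor, was listed at 0 in both WT libraries and had 1.55 and 4.91 TPM in Dido1∆E16 libraries. The erythroid marker sum, which includes Klf1, was 301 and 924 TPM in WT and 682 and 8688 TPM in Dido1∆E16 libraries. Klf1 lay close to the floor, and the part of erythroid cells in its values was not tested. Klf10, induced by TGF-beta, had 23.7 and 48.8 TPM against 26.1 and 13.3 TPM (-0.83 ± 0.50). Of the 25 kinases and regulators of Foxo, 0 were called and 2 had an unadjusted p under 0.05 (11.6% over all genes), with a median of 0.08. The deacetylase gene Sirt1 had 46.6 and 52.9 TPM in WT and 36.2 and 31.8 TPM in Dido1∆E16 libraries (-0.54 ± 0.16, adjusted p of limma = 0.355), and the phosphatase gene Inpp4b 2.51 and 5.83 against 6.44 and 6.85 TPM (0.64 ± 0.43).

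Targets of Foxo and Klf2 did not pass the test either. Among 17 Foxo target genes, 9 had positive and 8 negative log2 fold changes, 0 were called, 1 had an unadjusted p under 0.05 (11.6% over all genes) and the median was 0.01. Txnip, which restrains glucose uptake, had 690 and 549 TPM in WT and 844 and 876 TPM in Dido1∆E16 libraries (0.48 ± 0.16, adjusted p of limma = 0.382), and the stress gene Sesn1 57.0 and 40.0 against 61.7 and 73.3 TPM (0.48 ± 0.23). Both genes were higher in both Dido1∆E16 libraries. Groups did not overlap for 7 of the 17 Foxo target genes, in either direction, against 42.7% of all genes tested. Of the 4 Klf2 target genes 0 were called and 0 had an unadjusted p under 0.05 (median -0.29). The integrin gene Itgb7 had 9.82 and 12.8 TPM against 3.06 and 8.18 TPM (-1.0 ± 0.49).

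The deadenylase through which Btg proteins act gave no call. Of 11 Ccr4-Not subunits 0 were called and 0 had an unadjusted p under 0.05 (median 0.01). Cnot4 had 52.6 and 54.4 TPM in WT and 46.5 and 35.5 TPM in Dido1∆E16 libraries (-0.39 ± 0.19), and the scaffold gene Cnot1 141 and 79.8 against 121 and 142 TPM (0.31 ± 0.31). Of 12 other quiescence genes 0 were called (median 0.13), with 1 at an unadjusted p under 0.05 and 1 called with eBayes without a trend. Foxj1, a forkhead gene of ciliated cells that also restrains lymphocyte activation, moved furthest, from 0.689 and 1.00 TPM in WT to 21.5 and 20.1 TPM in Dido1∆E16 libraries (3.56 ± 0.29, 95% interval 2.78 to 4.35, adjusted p of limma = 0.126). Zfp36l1, which promotes decay of cell cycle messages in pre-B cells, had 277 and 816 TPM against 463 and 282 TPM (-0.40 ± 0.60).

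Coverage along the transcripts was read as the ratio of the first to the last exon, which did not overlap between genotypes for 4 of the 8 members with a measurable ratio and overlapped for Foxo3, Klf2, Klf6 and Btg1. For Foxo1, coverage of exon 1 (chr3:52268337-52269422) on the TPM scale was 129 and 156 in WT, against 181 and 187 in Dido1∆E16 libraries, while that of the last exon (chr3:52346996-52350109) was 348 and 448 against 309 and 301. The ratio of first to last exon was 0.370 and 0.347 in WT, against 0.586 and 0.620 in Dido1∆E16 libraries. For Klf13 it was 0.292 and 0.291 against 0.432 and 0.404. Foxo4 (0.769 and 0.690 against 0.781 and 1.11) and Btg2 (0.811 and 0.725 against 0.851 and 0.919) were also higher in both Dido1∆E16 libraries. Klf2, at 0.433 and 0.399 against 0.430 and 0.406, overlapped between genotypes. The members did not stand out, since the ratio was higher in both Dido1∆E16 libraries for 52.0% of 6979 genes and lower in both for 307 genes, with a median log2 difference of 0.44. The cause of this shift, which touches the Foxo1 and Klf13 values, was not tested.

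In LSK cells fewer peaks were annotated to the members in Dido1∆E16 than in WT libraries, as were fewer peaks in all. WT replicates 1 and 2 had 40 and 80 MACS2 peaks annotated to the members, while the Dido1∆E16 replicates had 26 and 19 (mean difference -37.5, exact two-sided permutation p = 0.333, the smallest that 2 against 2 libraries can give). All MACS2 peaks numbered 27352 and 57739 in WT, against 13208 and 16329 in Dido1∆E16 libraries, whereas the total of sequenced tags was 10249256 and 52050898 against 22533077 and 44633938. Within each genotype the deeper library had more peaks, while the WT library with the fewest tags had more peaks than either Dido1∆E16 library. Per 10000 peaks of the library the members held 14.6 and 13.9 in WT, against 19.7 and 11.6 in Dido1∆E16 libraries (exact permutation p = 1.00). With the same number of best-scoring peaks taken from each library the members had 19 and 20 against 26 and 17 peaks, and the difference turned to 2.00. The difference was -57.5 without WT replicate 1 and -17.5 without WT replicate 2.

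**Figure D4:**
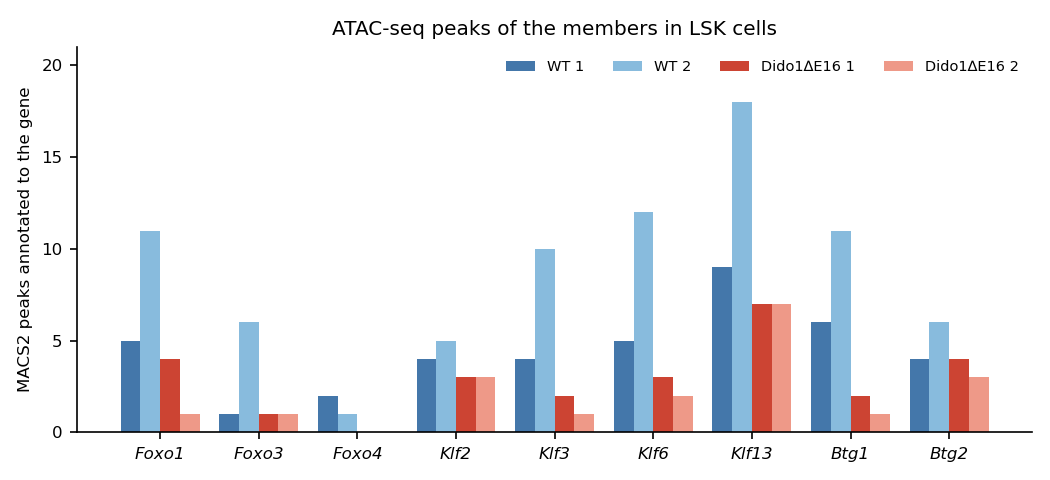
Number of MACS2 peaks annotated to each member in the 4 LSK libraries (bars, 1 per library; blue WT, red Dido1∆E16). WT replicate 2 has the most peaks at 8 of 9 genes, and Foxo4 has no bar in either Dido1∆E16 library.

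By gene, each Dido1∆E16 library had fewer MACS2 peaks than each WT library at 7 of 9 members, against 35.6% of 17769 genes with a peak. The count was 3 with HOMER peaks (19.5% of all genes with a peak) and 0 with the same number of best-scoring peaks (7.16%). These shares include genes without a peak in a WT library, which cannot meet the rule. Every member had a MACS2 peak in both WT libraries, so the count and the share are not like for like and show no excess at the members. Btg1 had 6 and 11 peaks in the WT and only 2 and 1 in the Dido1∆E16 libraries, Klf6 5 and 12 against 3 and 2, and Klf3 4 and 10 against 2 and 1. Foxo1 had 5 and 11 against 4 and 1 peaks, Klf13 9 and 18 against 7 and 7, Klf2 4 and 5 against 3 and 3, and Foxo4 2 and 1 against 0 and 0. The groups touched for Foxo3 (1 and 6 against 1 and 1) and Btg2 (4 and 6 against 4 and 3).

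Regions with a MACS2 peak in both WT libraries allow the same places to be followed. The members had 39 such regions, and 15 of them (38.5%, exact 95% binomial interval 23.4 to 55.4) overlapped no peak from MACS2 in the Dido1∆E16 libraries, against 43.7% of 26327 shared WT regions. They are called lost below, in the sense of these peak calls alone. The interval covers counting error only and treats the regions as independent, which regions of one gene are not. It measures no spread between libraries. Classed by the annotation of the WT replicate 1 peak, 12 of 29 outside promoters were without a Dido1∆E16 peak, against 60.6% of all such regions. At promoters 3 of 10 were, against 15.0%. A lost Klf3 region counted outside promoters lay in a WT replicate 2 peak that was annotated as promoter, at the downstream Klf3 start. The 3 promoter regions belonged to 2 genes, since a single wide peak of WT replicate 2 spanned both Foxo4 regions. The regions without a Dido1∆E16 peak had lower scores to begin with, with a median MACS2 score in WT replicate 1 of 26.0 against 46.5 for those that kept one. No peak of a member was found in both Dido1∆E16 libraries and in no WT library. Over all genes 108 of the 13208 peaks of Dido1∆E16 replicate 1 were. Members had 26 peaks in that library, too few for their 0 to be a result.

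The genes differed in which regions remained. Btg1 lost 4 of 5 shared regions and kept its promoter, which scored 141 and 270 in WT, against 83 and 90 in Dido1∆E16 libraries. Its lost regions lay 145 kb upstream and 69, 135 and 170 kb downstream of the start. Foxo1 lost 3 of 5, among them the promoter (35 and 57 in WT) and a region in intron 1, and kept one region 190 kb downstream in all 4 libraries, at scores of 38 and 110 in WT, against 36 and 39 in Dido1∆E16 libraries. Foxo4 lost both of its regions, which flank the start (scores 20 and 68 in WT). Klf3 lost 2 of 4, Klf6 2 of 5 and Klf13 2 of 9. A lost Klf13 intron region lay beside a kept one and had a HOMER peak in both Dido1∆E16 libraries. With overlapping peaks joined, the lost and the kept region form a single region with a peak in all 4 libraries.

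No shared region of Klf2, Btg2 or Foxo3 was lost in both Dido1∆E16 libraries. Klf2 kept its promoter (81 and 159 in WT, 51 and 37 in Dido1∆E16 libraries) and a region 37 kb upstream (84 and 239 against 22 and 37). Btg2 kept 2 distal regions in all 4 libraries, 18 kb downstream (83 and 171 against 64 and 37) and 14 kb upstream (57 and 82 against 65 and 26), while its promoter peak (27 and 74) scored 48 in Dido1∆E16 replicate 1 and was not called in replicate 2. Klf6 had the promoter with the steadiest score, 114 and 202 in WT, against 121 and 106 in Dido1∆E16 libraries. Klf13 had the most regions found in all 4 libraries, 6 of 18 with overlapping peaks joined. The libraries differed in depth and in their number of peaks, so scores of different libraries are given side by side and were not tested.

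Some lost regions were called by the other program. Of the 15 regions without a MACS2 peak in Dido1∆E16 libraries, 8 overlapped a HOMER peak of at least 1 of them. The Foxo1 promoter and the upstream Foxo4 region had a HOMER peak in Dido1∆E16 replicate 1 and none in replicate 2, and the Btg1 regions 135 and 170 kb downstream had one in replicate 2. The regions with no peak of either program in Dido1∆E16 libraries were those of Btg1 145 kb upstream and 69 kb downstream, of Klf6 248 and 258 kb downstream, of Klf13 35 kb upstream, the Foxo1 intron region and the Foxo4 region after the start.

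**Figure D5:**
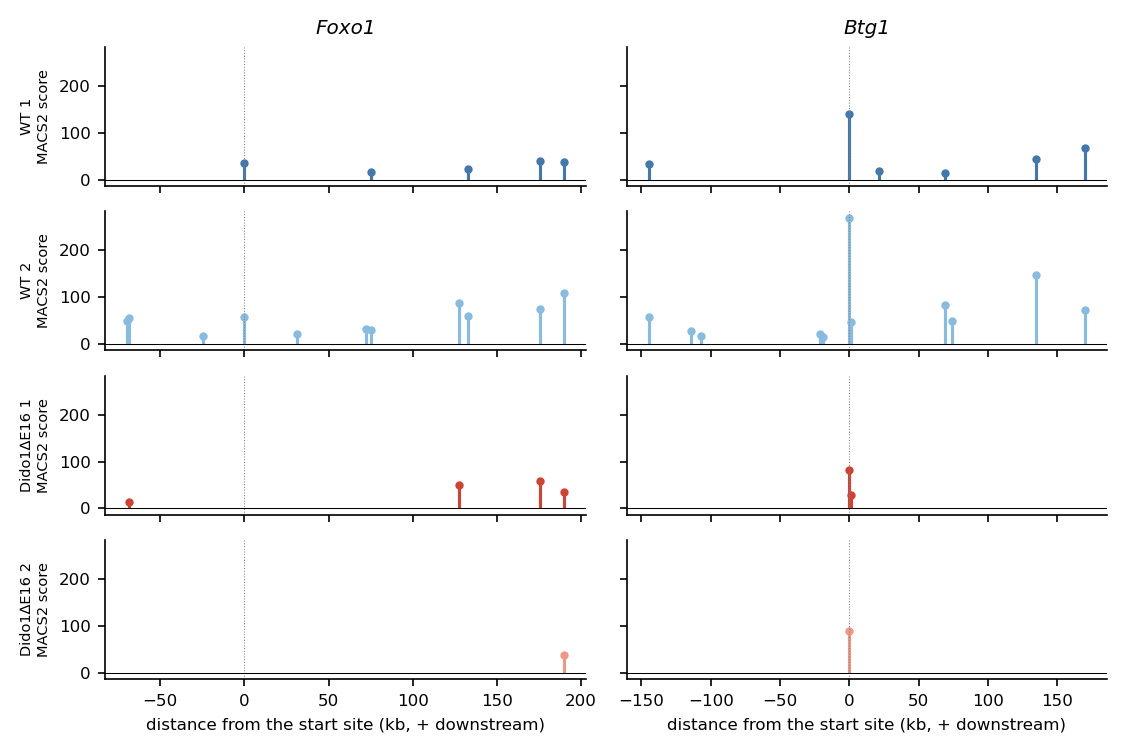
MACS2 score of each peak of Foxo1 (left) and Btg1 (right) against its distance from the start site in kb, 1 row per LSK library; a stem is a peak. At Foxo1 the stem at the start is present in both WT rows and absent from both Dido1∆E16 rows, and the stem at 190 kb is present in all 4; at Btg1 the stem at the start is present in all 4 and the distal stems only in WT.

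The sequences of 2 distal regions that remained and 2 that were lost are shown to let their letters be compared, as the 200 bases at the centre of the region shared by the WT libraries, on the plus strand of GRCm38.p6. They lie at chr3:52458587-52458786 (Foxo1, 190 kb downstream, kept), chr8:72281692-72281891 (Klf2, 37 kb upstream, kept), chr3:52401204-52401403 (Foxo1, 133 kb downstream, lost) and chr10:96751622-96751821 (Btg1, 135 kb downstream, lost), all intergenic. Capitals mark the GC box GGGCGG, the Gata motif AGATAA and the Runx motif TGTGGT on both strands.
Foxo1 190 kb: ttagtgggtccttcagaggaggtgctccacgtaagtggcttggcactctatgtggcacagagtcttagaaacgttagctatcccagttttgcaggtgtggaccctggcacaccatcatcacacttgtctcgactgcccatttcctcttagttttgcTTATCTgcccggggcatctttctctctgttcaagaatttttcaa
Klf2 37 kb: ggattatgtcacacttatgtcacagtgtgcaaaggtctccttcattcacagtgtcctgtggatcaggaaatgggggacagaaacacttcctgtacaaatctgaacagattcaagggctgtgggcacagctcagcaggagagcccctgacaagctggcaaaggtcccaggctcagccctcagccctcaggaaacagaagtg
Foxo1 133 kb: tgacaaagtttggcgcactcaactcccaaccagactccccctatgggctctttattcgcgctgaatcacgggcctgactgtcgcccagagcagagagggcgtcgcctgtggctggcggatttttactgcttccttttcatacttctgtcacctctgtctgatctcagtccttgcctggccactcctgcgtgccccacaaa
Btg1 135 kb: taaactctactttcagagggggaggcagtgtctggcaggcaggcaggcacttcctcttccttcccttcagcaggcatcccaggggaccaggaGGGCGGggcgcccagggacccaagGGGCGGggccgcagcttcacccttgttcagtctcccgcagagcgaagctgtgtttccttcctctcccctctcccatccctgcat

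Among the 29 shared regions of the members outside promoters, AGATAA was found in 3, 2 of them lost, against 8.83% of all 16572 such regions. TGTGGT was found in 5, 3 of them lost, against 26.5%, and GGGCGG in 2, 1 of them lost, against 10.6%. CACCC was found in 14, 5 of them lost, against 41.8%. Regions of one gene are not independent, so lost and kept regions were not tested against each other.

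The labelled LSK identity was read from peaks. Kit, Cd34, Flt3, Meis1, Hlf and Mecom, genes of stem and progenitor cells, had at least 1 MACS2 peak in each of the 4 libraries. Gata2 had 1 and 2 peaks in WT and none in Dido1∆E16 libraries, and Ly6a, which encodes Sca-1, had a peak only in WT replicate 2. Pre-B RNA and LSK chromatin come from different cells, and the values stand side by side only: Btg1, with 4 of 5 shared regions lost, had a log2 fold change of -0.10 in pre-B cells, and Foxo4, with both lost, one of 0.11.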

How the data were processed

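RNA-seq of pre-B cells and ATAC-seq of LSK cells were grouped by the genotype in the labels, 2 libraries per genotype and assay. For RNA-seq the authors aligned reads to mm10 with BWA 0.7.15 and ran StringTie on UCSC known genes; each deposited file lists the coverage of every exon and, per transcript, coverage, FPKM and TPM. For ATAC-seq the authors ran MACS2 and HOMER on each library and annotated them with ChIPseeker (promoter from 1 kb before to 200 bp after the start). Each MACS2 peak has a deposited score. Fold changes, p-values and logCPM of the authors' own comparisons were not used, nor were 8 columns of per-sample tag values; total tags come from a deposited table header.

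TPM was summed per gene. Members use transcripts named by the authors alone; other unnamed transcripts took the GENCODE M21 gene with at least 50% of their exonic bases. Summed exon coverage was 1121 to 1635 megabases per library. Log2(TPM + 1) of genes with a mean TPM of at least 1 was fitted by genotype with limma 3.58.1 in R 4.3.3 (eBayes with a trend), with Benjamini-Hochberg adjustment over all genes; standard errors and intervals are limma's. Exon ratios use the most abundant transcript of genes with a mean of at least 10 TPM and coverage in every library. Peaks of the autosomes and of X and Y were intersected with bedtools 2.31.1 from 1 bp of overlap. Motifs were searched on both strands of RefSeq promoters. The fit and the overlap rule were tested on simulated data. The members and gene lists were chosen with earlier results of these data known. The named genes are the members, per list the called genes and the 2 with the largest absolute change, and the 3 nearest to the member with the largest change. Some items the rule names are not reported here. Alternatives were another pseudocount, no filter, median-centring, FPKM, no immunoglobulin transcripts, the most abundant transcript, no trend, a replicate block and leaving out each library, and for peaks HOMER, equal numbers of peaks, no distal intergenic peaks and an overlap of at least 50%.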

Additional observations from a re-analysis of the deposited data

How the results depend on the processing

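No member was called under any of the 12 alternatives to the RNA-seq fit (lowest adjusted p of limma 0.202, for Foxo1 without WT replicate 1), and 91 of 108 log2 fold changes kept their sign. The number of genes called over all genes was 6 with median-centring, FPKM and no immunoglobulin transcripts, 0 with a pseudocount of 0.1 and 0 without a filter, 11 with the most abundant transcript, 87 with eBayes without a trend, and 0 to 0 without each library in turn. The correlation of replicate differences between genotypes was 0.0474 over genes. As a single value over all genes, it does not show whether the replicate numbers pair the libraries. Summed exon coverage was higher in replicate 1 than in replicate 2 of both genotypes, and the main Klf3 transcript followed the replicate number. A batch shared by libraries of the same replicate number was not tested. With the replicate number as a block 0 genes were called and the median of the members stayed at -0.10. That median ranged from -0.39 to 0.18 without each library, against -0.18 with median-centring. The sign of Klf3 turned with median-centring (-0.07), FPKM (-0.01) and the most abundant transcript (-0.04), and that of Foxo3 with the most abundant transcript (-0.75), since this leaves out the transcript that held most of its TPM in Dido1∆E16 replicate 2. Without each library in turn the changes ranged from -0.02 to 0.37 for Foxo3, -0.01 to 0.24 for Foxo4, -0.56 to 0.28 for Klf2, -0.16 to 0.20 for Klf3, -1.38 to 0.92 for Klf6, -0.17 to 0.03 for Klf13, -0.55 to 0.35 for Btg1 and -0.84 to 0.02 for Btg2; the lone library is assumed to vary like the others.

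For peaks, the difference of the members was -34.5 with HOMER, -11.5 without distal intergenic peaks and 2.00 with equal numbers of best-scoring peaks, and from -57.5 to -17.5 without each library. Members with fewer peaks in both Dido1∆E16 libraries numbered 3 with HOMER, 3 without distal intergenic peaks and 0 with equal numbers, against 19.5%, 27.6% and 7.16% of all genes with a peak. Those shares again include genes without a peak in a WT library, which cannot meet the rule. The share of regions without a Dido1∆E16 peak was 6.25% with equal numbers, 31.1% with HOMER, 41.2% without distal intergenic peaks and 41.0% with an overlap of at least 50%, against 13.3%, 29.3%, 37.3% and 44.5% over all regions. Equal numbers keep 13208 peaks per library by construction. With 2 libraries per genotype, changes of 1 log2 unit were mostly out of reach.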
